A study of Musa acuminata AAA Group with 12 samples.

Results

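A set of 83 genes in the pulp of Cavendish banana differed between chitosan-coated and uncoated fruit at day 7 but not by the same measure at day 1. The genes were chosen by their FPKM values, in which the fragments of a gene are divided by its length and by the sequencing depth. At day 1 the ranges of the 3 coated and the 3 control libraries had to overlap. At day 7 the lowest value of one group had to be at least 5 FPKM and at least 1.3 times the highest value of the other group. Of the 35272 gene rows with an ID, 83 met this rule, so the limit of 200 genes in the rule was not reached. All 83 were among the 19746 genes tested here, those that reached 1 FPKM in 3 or more libraries, a condition that the rule itself ensures. In the coated fruit of day 7, 14 of the genes were higher and 69 were lower than in the control, a split that became 33 and 21 when the libraries were scaled by the median of ratios.

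Pulp of *Musa acuminata* (AAA Group, Subgroup Cavendish) was sequenced as 12 libraries in 4 groups, each of 3 biological replicates named a, b and c. The codes 1K and 7K stand for control fruit of day 1 and of day 7, and the codes 1A and 7A for coated fruit of the same days. Control fruit had no coating, coated fruit had been dipped in 1.25% chitosan, and the fingers of all groups had been treated with ethylene. How many fruits make up a library is not given in the sources used here. The labelled tissue could not be checked against marker genes, because the tables hold gene IDs without names and 0 of the IDs matched the RefSeq gene table at hand, which describes another banana assembly. The genes are therefore given by their ID and their place in the DH Pahang version 2 genome, with coordinates as the deposited tables list them, and no function or sequence is assigned to any of them.

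Banana is a climacteric fruit, in which a burst of ethylene starts a coordinated change of the pulp. Starch is broken down to sugars, cell walls loosen and aroma compounds form. Chitosan is a polysaccharide derived from chitin that dries to a film on the peel and slows gas exchange and water loss, and it is also known to elicit defence responses in plants. The pulp lies under the peel and is not itself covered by the film.

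Some properties of the whole series bear on every value. The confidence bounds in the tables imply between 11078141 and 16553611 fragments in 11 of the libraries and 6136363 in 7A_c. The sequencing statistics of the study do not list 7A_c as a small library, and the low number was derived from the bounds. The library also had the fewest genes above 0 FPKM, 23164, where the next lowest, 1A_b, had 24197. The median of the 83 genes was 60.2 fragments in 7A_c, against 129 in 7A_a and 125 in 7A_b. Over all tested genes the median difference of coated minus control fruit at day 7 was -0.13 on the scale log2(FPKM + 1) with FPKM as deposited, and 0.00 without 7A_c or after median-of-ratios scaling, which divides each library by its typical ratio to the average library. The libraries 1K_c, 1A_a, 1A_b, 7K_c and 7A_c have a lower read GC content than the others in the sequencing statistics of the study. Every group thus holds libraries of both kinds, but not in equal shares. At day 1, 2 coated libraries and 1 control library have the lower content, while at day 7 it is 1 in each group. Coating and read GC content are therefore partly confounded at day 1.

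The difference at day 7 is what chose the genes and is given as a description without a test. In the 14 genes that were higher in coated fruit, the coated mean was 157% to 330% of the control mean, with a median of 208%, and 8 genes were above 200%. In the 69 genes that were lower, the coated mean was 0% to 70.2% of the control mean, with a median of 55.2%, and 23 genes were below 50%. Among all tested genes, 0.268% met the day 7 part of the rule with coated fruit higher and 0.506% with coated fruit lower. These were 53 and 100 genes, and the numbers turned to 105 and 29 with median-of-ratios scaling and to 87 and 41 with quantile normalization. Without regard to the size of the gap, coated fruit lay above control fruit with no overlap in 1.98% of the tested genes and below it in 9.83%. In bulk pulp, fewer cells that use a gene and less of its RNA in each cell cannot be told apart.

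**Figure D1:**
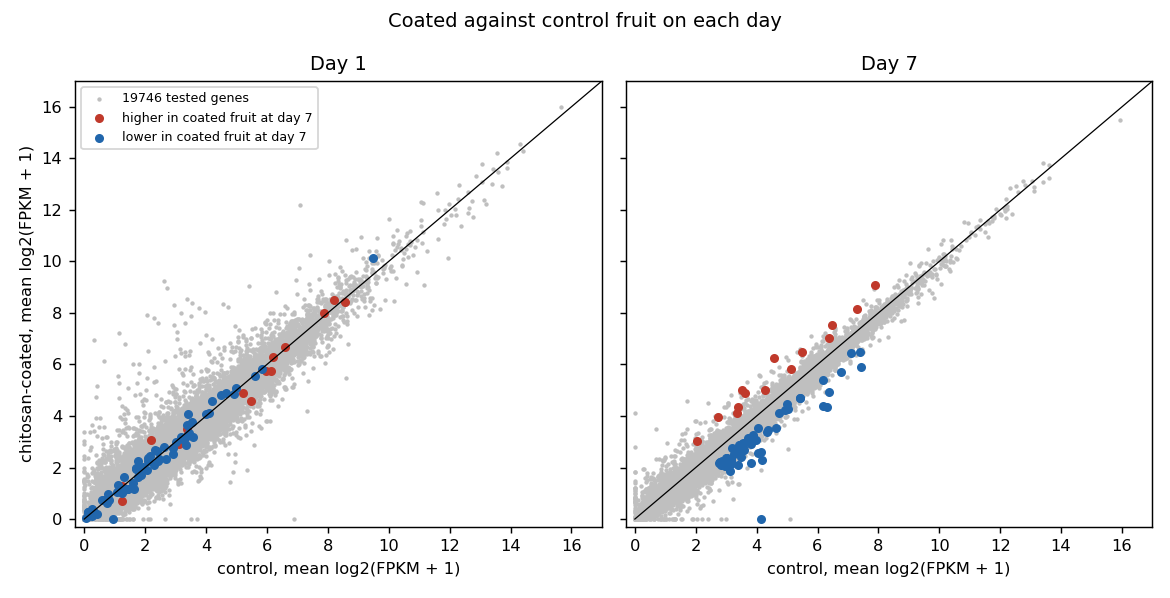
Mean log2(FPKM + 1) of the 3 coated libraries (vertical axis) against that of the 3 control libraries (horizontal axis) at day 1 (left) and day 7 (right), with the 19746 tested genes in grey. The 14 genes higher (red) and 69 genes lower (blue) in coated fruit at day 7 lie away from the line of equal values at day 7, which is how they were chosen. At day 1 the rule asks only for overlap, and 3 of the higher and 3 of the lower genes differed by at least 0.5 on this scale.

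The lower genes were less abundant than the higher ones, with a median of 10.6 FPKM in 7K against 44.3 in 7A. Their mean FPKM in 7K was below 10 in 29 genes, between 10 and 100 in 36 and at least 100 in 4. The corresponding means of the higher genes in 7A were below 10 in 1 gene, between 10 and 100 in 9 and at least 100 in 4. Many of the lower genes thus lie close to the level of 5 that the rule sets. The confidence bounds of the tables, which cover counting error within a library, did not touch between any coated and any control library of day 7 in 13 of the 14 higher and in 39 of the 69 lower genes. The same day 7 values chose the genes, so the rule favours such separation and the count is a description only. The share over all tested genes was not computed.

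The genes nearest to the limits differed little across them. Among genes higher in coated fruit, the last one inside had a lowest coated value of 14.3 against a highest control value of 10.9, and the first one outside had 381 against 295. Among lower genes, the last one inside had a lowest control value of 7.89 against a highest coated value of 6.07, and the first one outside had 11.9 against 9.15. At the limit on level, the lowest value of the higher group was 6.32 inside and 4.68 outside for genes higher in coated fruit. It was 5.27 inside and 4.88 outside for the lower genes.

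The balance of the directions changed with the scaling between libraries. With FPKM as deposited, 14 genes met the rule as higher and 69 as lower. With scaling to a common sum these numbers were 20 and 42, with median-of-ratios scaling 33 and 21, and with quantile normalization 32 and 31. Which direction is more frequent is therefore not given as a result. Of the 69 lower genes, 17 met the rule again under median-of-ratios scaling and 48 were lost at day 7 alone, although the groups still did not overlap in 48 of the 69. Of the 14 higher genes, 8 met it again, and the groups did not overlap in any of the 14. Only 6 higher and 6 lower genes met the rule under all 4 scalings, while 1 higher and 32 lower genes met it with FPKM as deposited alone.

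**Figure D2:**
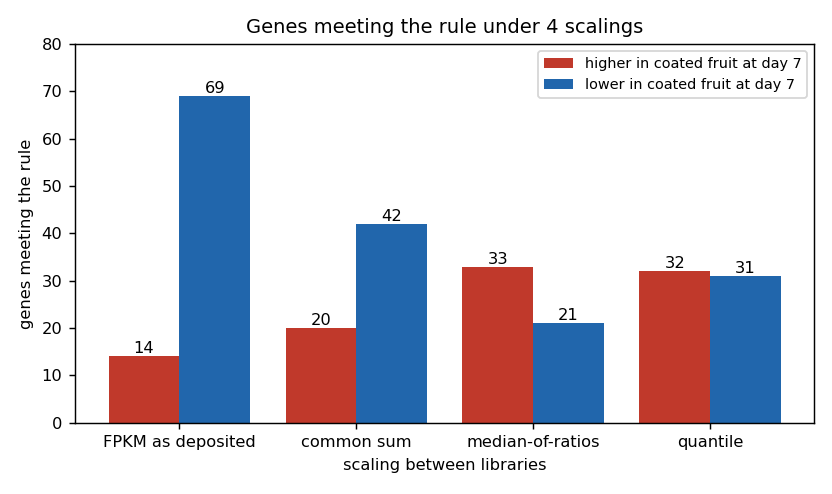
Number of genes that met the rule (vertical axis) with FPKM as deposited and with 3 other scalings between the libraries (horizontal axis), apart for genes higher (red) and lower (blue) in coated fruit at day 7. The split turned from 14 and 69 with FPKM as deposited to 33 and 21 with median-of-ratios scaling.

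Single libraries at the edge of a group also limited the number of genes. In the 69 lower genes, 7K_a had the lowest control value in 44, 7K_c in 17 and 7K_b in 8, while the highest coated value came from 7A_a in 24, 7A_b in 24 and 7A_c in 21. Applied without 7K_a, the rule found 268 lower genes, and it found 197 without 7K_c, 291 without 7A_c and 105 without 7A_a. The number of higher genes was 93 without 7A_c, 40 without 7K_c, 26 without 7A_b and 9 without 1A_c. Fewer libraries make the day 7 part of the rule easier to meet and the day 1 part harder, so larger numbers are built into leaving out a day 7 library. All 83 genes met the rule again when any single library of day 7 was left out, as its form ensures.

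The day 1 values were part of the choice as well. The log2 difference of coated minus control ranged from -0.91 to 0.87 in the higher genes, with 7 positive and 7 negative, and from -0.95 to 0.68 in the lower genes, with 33 positive and 36 negative. Its size was at least 0.5 in 3 of the higher and 3 of the lower genes. Overlap of 3 against 3 libraries does not show that a gene had no response at day 1. Of the 53 genes that met the day 7 part as higher, 14 (26.4%) overlapped at day 1, and of the 100 that met it as lower, 69 (69.0%) did, where 78.4% of all tested genes overlapped. Among the genes left out for this reason, 27 of the higher ones were already higher in coated fruit at day 1 and 12 were lower. Of the lower ones, 21 were already lower and 10 were higher. The overlap at day 1 was also examined within the libraries of higher and of lower read GC content. In 32 of the 83 genes, 7 of the 14 higher and 25 of the 69 lower, all coated libraries lay on the same side of all control libraries at day 1 within both kinds of library. Each kind holds only 1 or 2 libraries of a group, and 45.4% of all tested genes that overlapped at day 1 showed the same. For these 32 genes the overlap of all 6 libraries does not separate a late from an early difference. Of the genes described in full here, Ma02_g03830, Ma04_g31690, Ma06_g16630, Ma08_g20650 and Ma09_g27900 are among them. This count was chosen after the data were seen. At day 7 the direction held within both kinds of library in all 83 genes, as the rule ensures, with median log2 differences of -0.69 and -0.89 in the lower genes and 0.97 and 0.95 in the higher ones.

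The mirror image of the rule, with overlap at day 7 and separation at day 1, found 718 genes, against 83 here. With median-of-ratios scaling the numbers were 725 and 54. Coated and control libraries differ in their balance of read GC content at day 1 but not at day 7, and the part of this in these numbers was not tested.

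The change from day 1 to day 7 is not part of the rule and was tested as the mean of coated and control fruit. The coating difference at day 7, which chose the genes, does not cancel in this mean and enters it in part. The test also shares its libraries with the rule, and the rule asks for at least 5 FPKM in a day 7 group. Of the 69 genes lower in coated fruit, 51 (73.9%) rose from day 1 to day 7, 10 (14.5%) fell and 8 did not pass the test (limma, Benjamini-Hochberg adjusted p under 0.05). Over all 19746 tested genes the shares were 40.3% rising and 20.5% falling. Among the 10167 tested genes with a day 7 group wholly at 5 FPKM or more they were 46.9% and 16.5%, and among the 7508 of these that overlapped at day 1 and did not meet the rule they were 45% and 13.7%. Of the 14 genes higher in coated fruit, 4 rose, 4 fell and 6 did not pass.

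**Figure D3:**
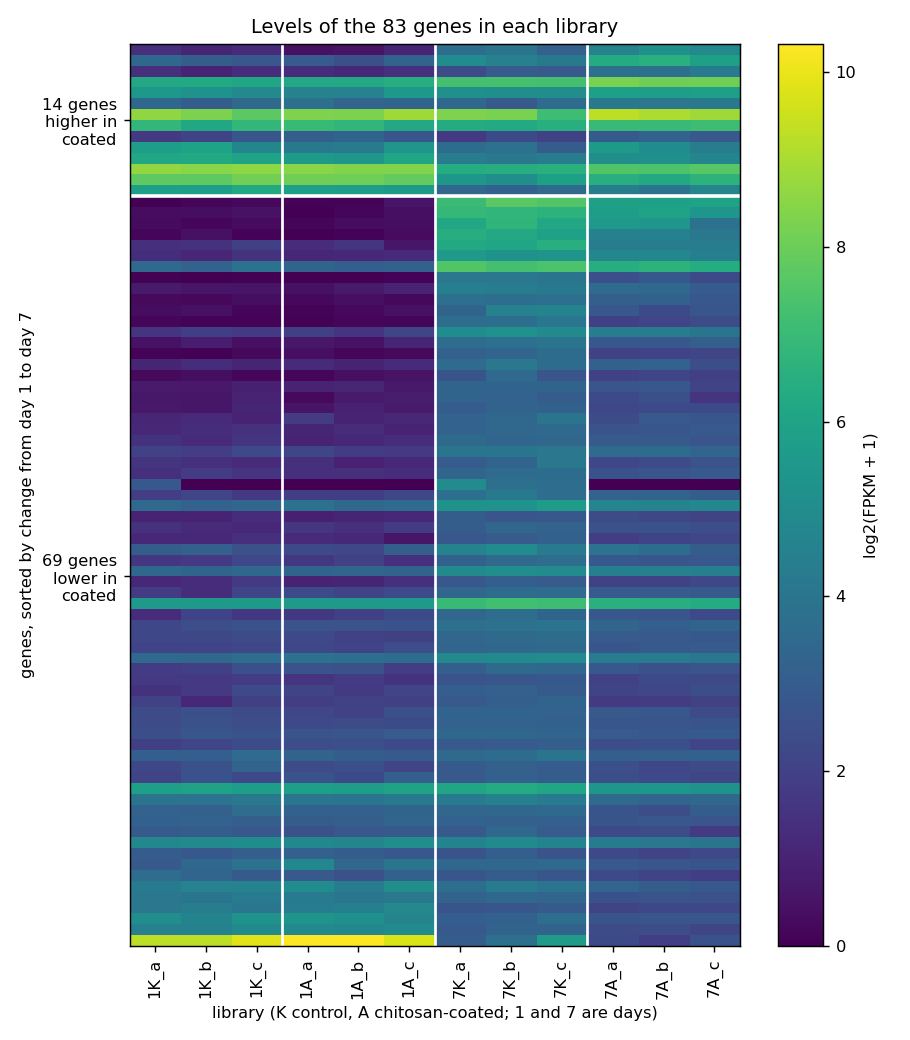
Level of each of the 83 genes (horizontal strips) in each of the 12 libraries (columns) as log2(FPKM + 1), with the 14 genes higher in coated fruit at day 7 above the white line and the 69 lower genes below it, each sorted by their change from day 1 to day 7. Most of the lower genes are darkest at day 1, brightest in 7K and in between in 7A, with exceptions at the foot of the plot where day 1 is brightest.

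The size of the change also differed between the lists. The median log2 change was 1.35 in the lower genes and 0.11 in the higher genes, against 0.36 over all tested genes. It was 0.45 over the tested genes with a day 7 group wholly at 5 FPKM or more. The day 7 values that chose the lists enter this change in part, so the contrast is a description only. Median-of-ratios scaling moved the median of all tested genes from 0.36 to 0.04, and it moved the split of all calls from 7961 rising and 4042 falling to 5707 and 5727. Under this scaling the lower genes had a median of 0.97, with 45 rising and 15 falling genes. The higher genes had a median of -0.30, with 4 rising and 5 falling. The lower genes changed in the same direction within the 7 libraries of higher read GC content and within the 5 of lower read GC content in 67 of 69 cases, with medians of 1.29 and 1.21. The same held for 11 of the 14 higher genes, with medians of 0.15 and -0.04. Over all tested genes the medians within the 2 kinds of library were 0.34 and 0.21. The share of all tested genes with the same direction in both kinds was not computed, so these counts are not read as particular to the lists.

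In 42 of the lower genes the 6 libraries of day 7 lay wholly above those of day 1, and in 5 wholly below. Over all tested genes, 22.9% and 13.4% were separated in these directions. Among the 10167 tested genes with a day 7 group wholly at 5 FPKM or more, 2995 were wholly above and 1037 wholly below. In the higher genes there were 4 in each direction. Taken apart by coating, which shares the day 7 libraries with the rule and is given as values alone, the mean of 50 lower genes was higher at day 7 in both control and coated fruit and that of 9 was lower in both. In 9 it was higher in the control and lower in coated fruit, and 1 gene was at 0 in all coated libraries. The median log2 change of the lower genes was 1.70 in control and 0.90 in coated fruit, against 0.37 and 0.34 over all tested genes. Of the 19746 tested genes, the change was positive in 12982 in control and in 12412 in coated fruit. Of the higher genes, 4 were higher at day 7 in both, 5 lower in both, and 5 were lower in the control and higher in coated fruit.

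**Figure D4:**
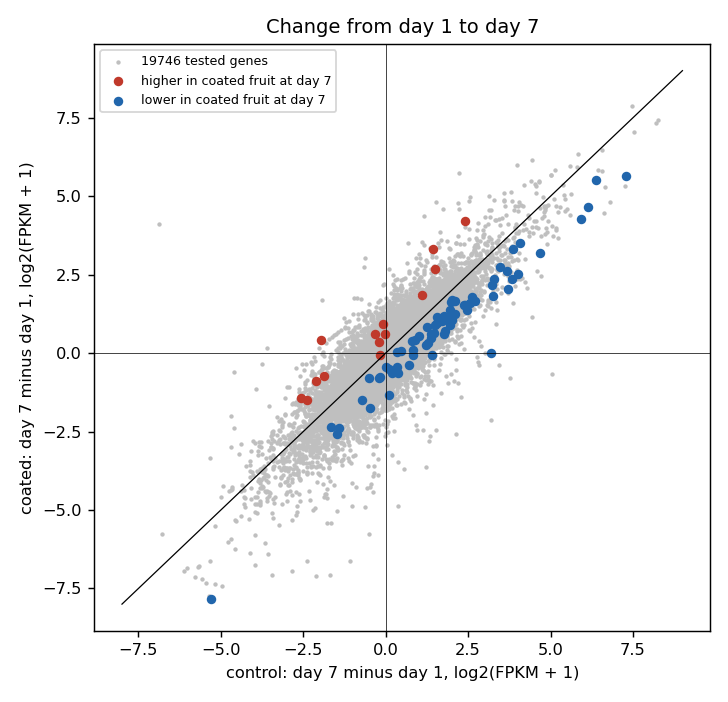
Change from day 1 to day 7 on the scale log2(FPKM + 1) in coated fruit (vertical axis) against that in control fruit (horizontal axis), with the 19746 tested genes in grey and the line of equal change. The genes lower in coated fruit at day 7 (blue) lie below the line and mostly to the right of 0, with a median change of 1.70 in control and 0.90 in coated fruit, and the higher genes (red) lie above it.

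Of the 69 lower genes, 11 (15.9%) were below 1 FPKM in all 6 libraries of day 1, as were 7.07% of all tested genes. All 11 rose by day 7. Their low day 1 level and the 5 FPKM that the rule asks of the day 7 control fix this direction in advance. Among the 10167 tested genes with a day 7 group wholly at 5 FPKM or more, only 91 (0.895%) were this low at day 1. A gene that is nearly silent in both groups at day 1 meets the overlap condition easily, as 84 of these 91 did. None of the 14 higher genes was of this kind. The 6 lower genes that met the rule under all 4 scalings included 5 of these 11 genes, and these 5 genes, singled out after their values were seen, are given here in full. In all 5, coated fruit had reached 26.5% to 34.2% of the control mean at day 7 with FPKM as deposited, and 30.5% to 39.0% with median-of-ratios scaling.

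Ma04_g21650 lies on chromosome 4 from 24157485 to 24158477. Its FPKM was at most 0.505 in the 6 libraries of day 1. At day 7 it was 132 in 7K_a, 205 in 7K_b and 182 in 7K_c, and 57.1 in 7A_a, 58.1 in 7A_b and 62.5 in 7A_c. The coated libraries lay close together at less than the lowest control library. The gene had the largest rise of the 83 genes, with a log2 change of 6.47 as the mean of both groups (SE 0.14, limma adjusted p = 8.18e-10).

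Ma10_g00200 lies on chromosome 10 from 1436215 to 1437394 and was at most 0.394 FPKM at day 1. At day 7 it was 84.7, 74.4 and 58.8 in the control libraries a, b and c and 21.7, 22.1 and 16.8 in the coated ones. In each group its libraries of lower read GC content had the lower values, and the part of this in the result was not tested. Its log2 change with day was 5.10 (SE 0.14, limma adjusted p = 2.16e-09). The other 3 genes of this kind reached lower levels. Ma05_g05480 (chromosome 5, 4156951 to 4159084) had 16.15, 15.98 and 14.83 FPKM in 7K and 4.69, 6.16 and 3.98 in 7A. Ma07_g08700 (chromosome 7, 6463246 to 6481252) had 11.99, 12.33 and 15.57 in 7K and 2.83, 3.42 and 4.32 in 7A. Ma05_g25200 (chromosome 5, 37208096 to 37209336) had 7.94, 9.35 and 11.5 in 7K and 3.15, 3.19 and 3.44 in 7A. All 3 rose with day, as the low day 1 level and the rule ensure. The rises were 3.27, 2.88 and 2.54 on the log2(FPKM + 1) scale, which understates the change of genes near 0 at day 1. Each day 7 value of these 5 genes stood for at least 31.9 fragments, and the day 1 values for at most 6.

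**Figure D5:**
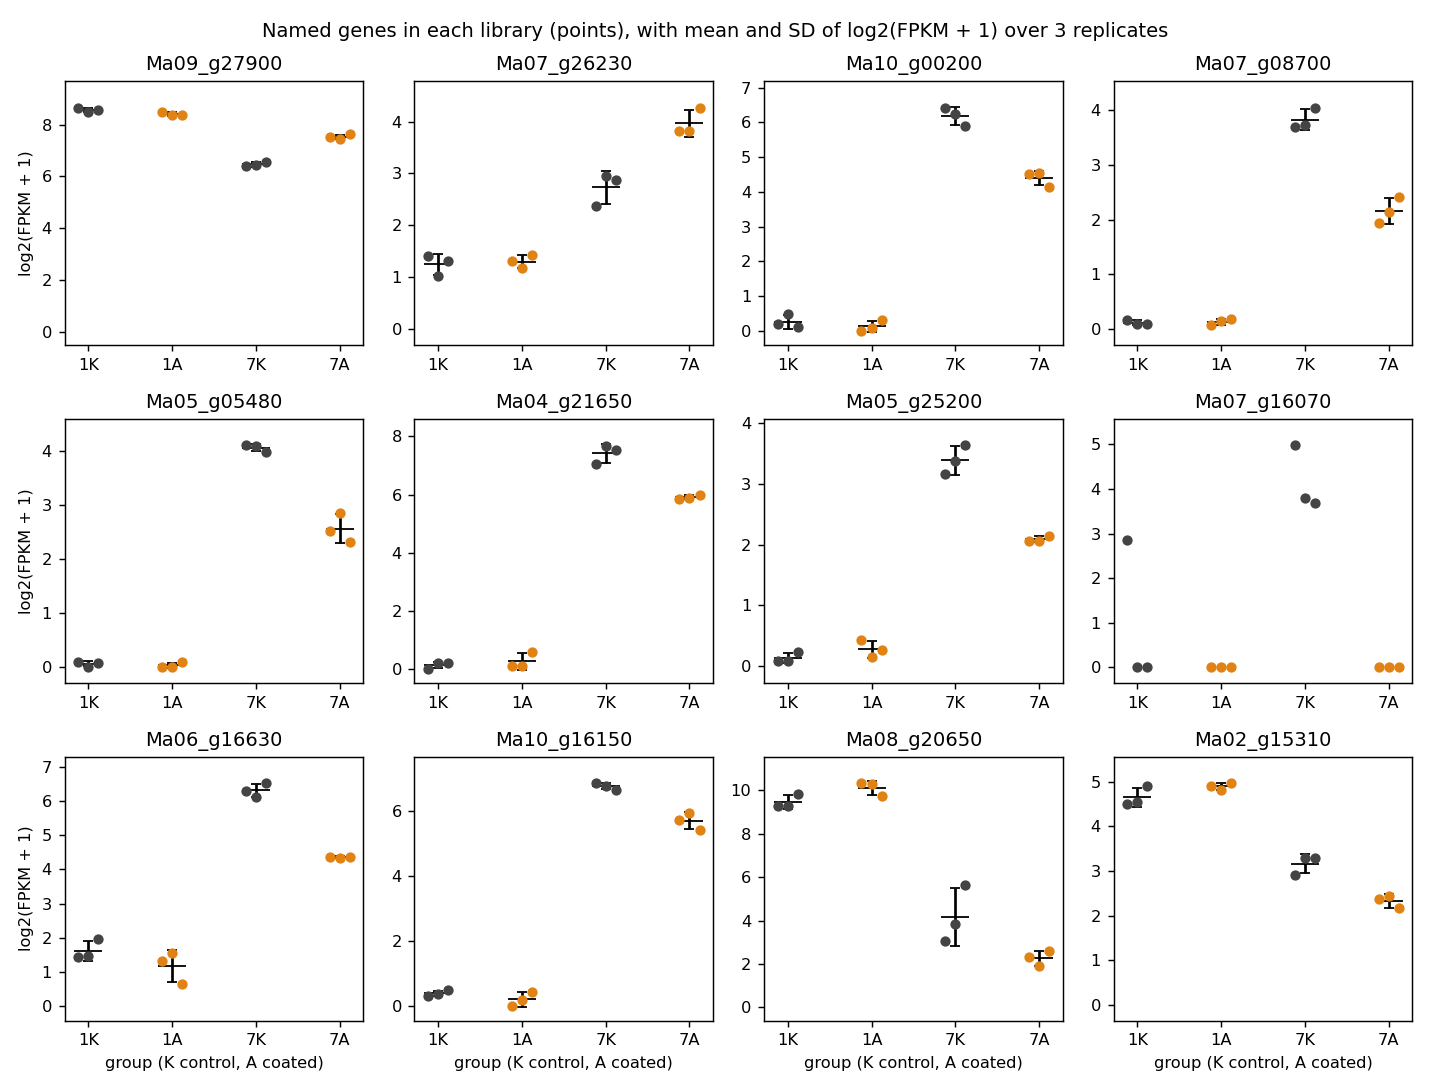
Log2(FPKM + 1) of 12 named genes in each library (points, vertical axis) of the 4 groups (horizontal axis), with the mean and SD of the 3 replicates, left out for Ma07_g16070 because it is listed at 0 in most libraries. In the 5 genes from Ma10_g00200 to Ma05_g25200 both day 1 groups sit near 0, and the 7A points lie between them and the 7K points.

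Other lower genes with a wide gap had some reservation. Ma06_g16630 (chromosome 6, 11260996 to 11262076) was 77.3, 68.9 and 90.7 FPKM in 7K and 19.8, 19.2 and 19.7 in 7A, so coated fruit had 24.7% of the control mean. At day 1 it was 1.71, 1.77 and 2.88 in 1K and 1.48, 1.96 and 0.561 in 1A, which overlapped, but with scaling to a common sum the day 1 groups no longer overlapped. It rose by 3.94 (SE 0.17, limma adjusted p = 2.49e-08). Ma07_g16070 is a locus of 150 bp on chromosome 7 from 12442070 to 12442220. It was listed at 0 in all coated libraries and had 30.5, 13.0 and 11.9 FPKM in 7K, but these stand for 5, 2 and 2 fragments, and its 6.28 FPKM in 1K_a for 1 fragment. No fold is given for it, and although it passed the test of day (limma adjusted p = 0.0115), its day 1 and day 7 libraries overlapped. It is the other lower gene that met the rule under all 4 scalings. Ma10_g16150 (chromosome 10, 27970088 to 27971569) was among the largest rises with day, at 5.93 (SE 0.13, limma adjusted p = 8.18e-10). It had 116, 109 and 101 FPKM in 7K against 52.7, 61.5 and 42.1 in 7A, and at most 0.407 at day 1. It did not meet the rule with scaling to a common sum or with quantile normalization.

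A minority of the lower genes went down between the days, and in them coated fruit ended lower, as the rule ensures. Ma08_g20650 (chromosome 8, 34771063 to 34772948) had the largest fall, with a log2 change of -6.57 (SE 0.37, limma adjusted p = 1.49e-07). Its FPKM was 624, 628 and 918 in 1K and 1282, 1255 and 851 in 1A, and it was 7.36, 13.2 and 49.1 in 7K and 3.998, 2.75 and 5.03 in 7A. The control libraries of day 7 spread widely, with 7K_c far above the others and 7K_a close to the coated libraries. In each group the libraries of lower read GC content had the higher values, and within both kinds of library coated fruit was above control fruit at day 1. The part of this in the result was not tested. The gene met the rule with FPKM as deposited alone. Ma02_g15310 (chromosome 2, 23073029 to 23076083) fell by 2.02 on the log2 scale (SE 0.12, limma adjusted p = 1.72e-07). It went from a mean of 26.5 FPKM over the day 1 libraries to 6.57, 8.80 and 8.71 in 7K and 4.19, 4.45 and 3.49 in 7A. Its value in 7A_c stands for 11.9 fragments. Ma02_g15310 did not meet the rule with median-of-ratios scaling or with quantile normalization.

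The genes higher in coated fruit took several courses. Ma09_g27900 (chromosome 9, 38763963 to 38765320) had the widest gap after 1 was added to both edges, and fell with day. Without that addition the gap of Ma07_g26230 was the wider one, at 1.94 times against 1.86 times. The FPKM of Ma09_g27900 was 401, 360 and 382 in 1K and 363, 331 and 329 in 1A, then 83.5, 85.3 and 93.9 in 7K and 181, 174 and 197 in 7A. Control fruit thus went from 381 ± 20.6 to 87.6 ± 5.52, and coated fruit went from 341 ± 19.2 to 184 ± 11.7 (SD, n = 3 each). The log2 change of Ma09_g27900 with day over both groups was -1.50 (SE 0.09, limma adjusted p = 1.94e-07). Ma07_g26230 (chromosome 7, 33116897 to 33118462) rose instead, by 2.08 (SE 0.15, limma adjusted p = 8.19e-07). It was between 1.04 and 1.67 FPKM in all day 1 libraries, and had 4.15, 6.73 and 6.38 in 7K and 13.1, 13.2 and 18.3 in 7A.

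These 2 genes met the rule under all 4 scalings, as did 4 others that were singled out after their values were seen. Ma04_g27480 (chromosome 4, 28654901 to 28662767) had 31.4, 21.5 and 16.8 FPKM in 7K and 81.5, 91.8 and 56.9 in 7A, or 330% of the control mean. In each group its libraries of lower read GC content had the lower values. It rose by 2.38 (SE 0.21, limma adjusted p = 3.53e-06). Ma04_g31690 (chromosome 4, 31927874 to 31932588) had 156, 159 and 156 in 7K and 299, 273 and 274 in 7A, and rose by 1.48 (SE 0.09, limma adjusted p = 1.80e-07). Its control libraries differed from each other far less than from the coated ones. Ma06_g15770 (chromosome 6, 10670770 to 10673186) had 44.3, 38.2 and 28.0 FPKM in 1K, 23.7, 23.1 and 44.4 in 1A, 35.4, 34.6 and 32.9 in 7K and 56.6, 53.3 and 56.3 in 7A. Within each group the replicates lay closer together at day 7 than at day 1. Ma02_g03830 (chromosome 2, 15290869 to 15300549) had 52.9, 61.9 and 25.5 FPKM in 1K, 16.9, 17.4 and 40.3 in 1A, 11.5, 13.6 and 7.16 in 7K and 48.4, 31.8 and 19.3 in 7A. As in Ma04_g27480, the libraries of lower read GC content had the lower values of Ma02_g03830 in each group. The part of this in the result was not tested for Ma04_g27480 or Ma02_g03830. Ma06_g15770 and Ma02_g03830 did not pass the test of day (adjusted p = 0.056 for each from limma). At day 1 coated fruit lay below control fruit in Ma02_g03830 within both kinds of library.

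In place and length the 83 genes were described beside all tested genes. They lay on all 11 chromosomes, with 13 genes (15.7%) on chromosome 10, where 9.04% of the tested genes lie, and 1 gene on chromosome 1, where 7.01% lie. No pair of the genes had fewer than 3 other genes between them. The median span of the locus, introns included, was 2721 bp in the lower and 3450 bp in the higher genes, against 4285 bp over all tested genes and 4706 bp over those with a day 7 group wholly at 5 FPKM or more.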

How the data were processed

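The authors used TopHat for mapping, with DH Pahang version 2 as the genome, and deposited the FPKM that Cufflinks gave for each gene and library, with confidence bounds. Mapping and counting settings, strand included, are not given in the sources used here, so overlapping or near-identical genes can share fragments. Fragment numbers were derived from the relative width of these bounds, taken as 2 Poisson SDs, and cover counting error only. Values were not scaled again. The days were compared with limma 3.58.1 (R 4.3.3) on log2(FPKM + 1) (intensity trend, all 12 libraries, group means, Benjamini-Hochberg adjustment over 19746 genes, adjusted p under 0.05), tested on simulated data. Tables and figures used Python 3.11.15, numpy 2.4.6, pandas 2.3.3 and matplotlib 3.10.9.

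The genes and lists were chosen with earlier results of these data known. Named are the 2 genes with the widest gap in each direction, after adding 1 to both edges, and the 2 largest rises and falls with day among called genes whose days do not overlap. Others named were singled out later. A row without an ID was left out. Planned lists of ripening genes were not run, as 0 IDs matched.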

Additional observations from a re-analysis of the deposited data

How the results depend on the processing

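The number of genes meeting the rule moved with most settings. For genes higher in coated fruit it was 14, and became 33 with median-of-ratios scaling, 32 with quantile normalization, 7 with a ratio of at least 1.5 and 25 with a ratio of at least 1.2. It ranged from 9 to 93 with a library left out. For lower genes it was 69, and became 42 with scaling to a common sum, 21 with median-of-ratios scaling, 31 with quantile normalization, 24 and 139 with these ratios and 29 with a level of at least 10. It ranged from 54 to 291 with a library left out. In the test of day the numbers called among these genes moved less than the membership did, but the numbers over all tested genes moved too. Lower genes rising numbered 44 to 52 and falling 9 to 15 over all alternatives, and of the 51 rising genes 45 stayed called with median-of-ratios scaling and 44 with quantile normalization. With the read GC content as a block, 52 lower genes rose and 12 fell, and 6 higher genes rose and 5 fell. With the replicate block, 51 lower genes rose and 9 fell, and 4 higher genes rose and 4 fell. Over all 19746 tested genes, 7961 rose and 4042 fell in the main setting. These numbers became 10394 and 5592 with the read GC block and 7937 and 3968 with the replicate block. With quantile normalization they were 6436 and 5405. The deviations of same-numbered libraries correlated above 0.1 in 9 of 18 pairs, and a library correlated best with its own number in 12 of 36 comparisons. Correlations were positive between libraries of the same kind of read GC content and negative between the kinds. For example, 1K_c correlated at 0.78 with 1A_a and at -0.87 with 1A_c. These counts therefore cannot decide whether the numbers pair the samples, and no pairing was used in the main setting. Genes with few implied fragments are the least precise. By the width of the bounds the fragments were fewest in 7A_c, which the number of reads in the study's statistics does not mirror.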
